A study of Mus musculus with 2 samples.

Results

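The endothelial cells of the uninjured (sham) mouse spinal cord were taken from a single-cell RNA library and described by their position along the blood vessel, from artery through capillary to vein. A cell barcode was kept when it held at least 500 unique molecular identifiers (UMIs, each marking 1 captured RNA molecule) and at least 30 UMIs per 10000 of Cldn5, Flt1, Pecam1, Cdh5 and Egfl7 summed. It also had to hold fewer than 30 per 10000 of the pericyte genes Rgs5, Vtn, Kcnj8, Abcc9 and Higd1b, fewer than 40 of the myelin genes Mag, Mog and Mobp, and fewer than 5 of the microglia genes P2ry12, Tmem119 and Siglech. Of 10126 sham barcodes with at least 500 UMIs, 1302 passed (12.9%, exact binomial 95% interval 12.2 to 13.5%), out of 23732 barcodes in the series. The cells were therefore chosen by measured values, so the levels of those 16 genes are given as a description.

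Endothelial cells line the vessels, and in the spinal cord, as in the brain, they form a barrier by sealing their contacts with tight junctions, by suppressing vesicle transport and by carrying nutrients across with dedicated transporters. Their expression changes along the vessel. Arterial cells are shaped by Notch and Sox17 and are wrapped by smooth muscle, capillary cells are richest in nutrient transporters, and venous cells, marked by the nuclear receptor Nr2f2, are where leukocytes usually leave the blood.

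The series held 2 libraries, 1 from cords at 3 days post injury (3 dpi) and 1 from sham cords. Each was made from an 8 mm length of cord, taken around the injury site, from 8-week-old C57BL/6 mice, 5 males and 5 females to a library, whose cells were pooled and captured with the 10X Genomics 3′ kit, version 3. The kind of injury and of sham operation was not given in the sources used here. With 1 library per condition there was no replicate, so no test was run and no p-value is given; the intervals below are at 95% and cover counting error only, so they say nothing of how mice or libraries vary.

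The 1302 cells gave 5559836 UMIs of 76889038 in the sham library, with 519 to 36337 UMIs per cell and a median of 3223.5, against a median of 5906 in the other sham barcodes. A search for simulated doublets marked 820 of the sham barcodes (8.10%) and 32 of the endothelial cells (2.46%), and these were kept. The 2 libraries shared 39 barcode sequences, 4 of them among these cells. Because the mice were of both sexes, Xist, which is made from the inactive X chromosome of female cells, and 4 Y-linked genes divided the cells by the sex of the donor: 475 were female-derived and 334 male-derived, 50 held UMIs of both kinds and 443 held neither. A single UMI sufficed for this division, so stray RNA may have placed some cells in the wrong set. Apart from such cells, values in female-derived and male-derived cells come from different mice within the same library.

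The cells carried the markers of their label. All 22 genes of an endothelial marker list were at least 2-fold higher than in the other sham barcodes, where 15.8% of the 7777 genes measured were that much higher and 17.4% that much lower; the cells were picked on 5 of these genes, so nothing is read from the count. Cldn5, the main tight junction protein of this endothelium, stood at 8664 UMIs per 1000000 UMIs (CPM) in these cells and 467 CPM in the other sham barcodes. Ly6c1, a surface protein, had 4229 and 241 CPM, and the organic anion transporter Slco1a4 had 1997 and 112 CPM. The 20 genes with most UMIs included, beside Cldn5, Flt1 and Ly6c1, the immunoglobulin family protein Bsg at 17884 CPM, the shear-responsive transcription factor Klf2 at 6387 CPM, the phospholipid transfer protein Pltp at 3288 CPM and the BMP target Id1 at 3184 CPM.

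RNA of other cell types was present in them as well. The 10 oligodendrocyte genes looked at summed to 6059 CPM in these cells and 66516 CPM in the other sham barcodes, and 9 microglia genes to 241 and 6522 CPM. The 11 pericyte genes summed to 621 and 1567 CPM. Markers of lymphatic endothelium summed to 8.09 CPM, with 3 of 5 genes at 0 UMIs, and Plvap, which marks the fenestrated endothelium of leaky vessels, had 3 UMIs in all. On the endothelial sum the lowest cell kept had 35.6 per 10000 and the nearest barcode left out 28.9. On the pericyte sum the values were 29.8 just inside and 30.1 just outside, and this limit by itself removed 462 barcodes that met all the others. The corresponding values were 39.5 and 41.6 for myelin, 4.09 and 5.16 for microglia, and 519 and 494 UMIs for depth.

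Arterial-like, venous-like and capillary-like cells were selected on 8 calling markers per state. The arterial markers were Bmx, Gkn3, Efnb2, Sema3g, Vegfc, Hey1, Gja4 and Fbln5. The venous markers were Nr2f2, Slc38a5, Lcn2, Vwf, Vcam1, Il1r1, Tmem252 and Lrg1. The capillary markers were Mfsd2a, Tfrc, Slc16a1, Slc7a5, Rgcc, Spock2, Slc7a1 and Ivns1abp. A cell's score for a state was the mean over its markers of the log level, standardised over the 1302 cells, and the highest score decided when it was above 0, led the next by at least 0.3 and rested on at least 2 markers with a UMI. This gave 178 arterial-like cells (13.7%, 11.9 to 15.7%), 159 venous-like cells (12.2%, 10.5 to 14.1%) and 323 capillary-like cells (24.8%, 22.5 to 27.2%), and 642 cells (49.3%) were left without a state. These numbers depend on depth. Called at an equal depth of 1000 UMIs, 84 cells were arterial-like, 102 venous-like and 284 capillary-like. The states are ranges of a continuous score rather than types, and 108 of the called cells lay within 0.1 above the margin, while 137 cells lay within 0.1 below it.

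**Figure D1:**
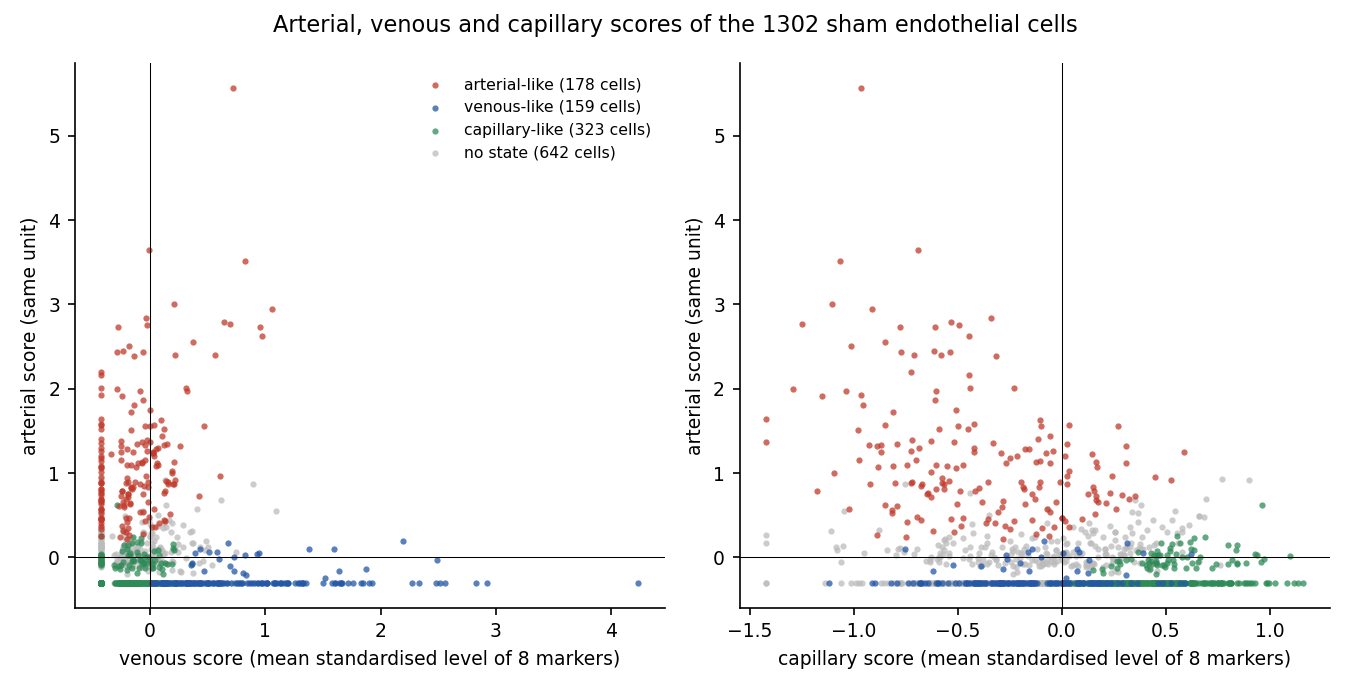
Each point is 1 of the 1302 cells, placed by its arterial score (vertical axes) and by its venous score (left) or capillary score (right), each the mean standardised level of 8 markers without unit. Arterial-like and venous-like cells leave the centre along separate arms, while capillary-like cells and cells without a state pass into each other; 178 cells were called arterial-like, 159 venous-like and 323 capillary-like.

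The calling markers show how the axes were drawn, and their values are a description. Gkn3, a gastrokine family protein found in brain arteries, had 722 CPM in arterial-like, 0.997 CPM in venous-like and 2.47 CPM in capillary-like cells. Hey1, a transcription factor switched on by Notch, had 443, 26.9 and 41.9 CPM in the same order of states. Nr2f2 had 13.7 CPM in arterial-like, 176 CPM in venous-like and 14.0 CPM in capillary-like cells, and the lipid carrier Mfsd2a had 297, 201 and 573 CPM. Of the 8 venous markers, 7 reached 20 CPM in venous-like or capillary-like cells, and Lrg1 did not. Because each marker was standardised, 1 UMI of so rare a gene weighs heavily in the venous score. Not every marker separated its state from both others. Vwf, the clotting factor carrier, had 194 CPM in arterial-like and 408 CPM in venous-like cells, both above 37.8 CPM in capillary-like cells. Vcam1, a ligand for leukocyte integrins, had 70 UMIs in 21 arterial-like cells and 141 UMIs in 36 venous-like cells, and none in the 323 capillary-like cells, which puts it at least 32.4-fold and 57-fold higher against a floor of 3 UMIs over the capillary-like cells. As Vcam1 is a venous calling marker, its UMIs raised the venous score and counted against a capillary call. Both folds are therefore partly set by the call. At least 2 arterial and at least 2 venous markers were found together in 129 cells (9.91%), and 162 cells (12.4%) had no UMI of either set.

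Arterial-like cells were set against capillary-like cells with the UMIs of each state summed. A gene was counted as higher or lower when its log2 ratio, with 10 CPM added to both levels, reached 1, which is a 2-fold difference, and genes below 20 CPM in both states were left out. Of 6965 genes measured, 180 were higher in arterial-like cells (2.58%) and 84 were lower (1.21%), with a median log2 ratio of 0.04 over all of them. Of the 180, 176 had the same direction in female-derived and in male-derived cells taken separately, and so had all 84 lower genes. At 2-fold in both sets were 126 of the higher and 64 of the lower genes. Both sets are part of the sums that gave the calls, which favours the same direction. Since the calling markers fixed which cells were compared, these ratios describe the states and are not tests of them.

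An arterial list of 20 genes that took no part in the call stood higher in the arterial-like cells. This list and the capillary and venous lists below were chosen with earlier results of these data known. Their counts are therefore a description and not a test of the states. Of the 18 that reached 20 CPM in either state, 14 were at least 2-fold higher and 0 were lower in arterial-like cells, with a median log2 ratio of 1.85, or 1.71 over all 20. Mgp, an inhibitor of vessel calcification, had 829 (770.2 to 892) CPM in arterial-like and 18.9 (12 to 28.4) CPM in capillary-like cells, a difference of 43.9-fold (29.0 to 69.7). Its UMIs were unevenly spread: 57 of 178 arterial-like cells held any, and 1 cell held 117 of the 728. Edn1, which encodes the vasoconstrictor endothelin-1, had 409 (368 to 454) and 61.6 (48.5 to 77.2) CPM, and Alpl, an alkaline phosphatase of arterial and arteriolar endothelium, had 488 (442 to 536) and 79.7 (64.6 to 97.2) CPM. Tm4sf1, a membrane protein of the tetraspanin-like family, had the most UMIs of the list, with 2857 (2746 to 2971) CPM in arterial-like and 712 (665 to 761) CPM in capillary-like cells. The 4 measured genes below the 2-fold mark were the transcription factor Sox17 (523 and 328 CPM), the Notch ligands Dll4 (208 and 129 CPM) and Jag1 (44.4 and 23.8 CPM), and Ltbp4, which tethers latent TGF-β (1144 and 638 CPM).

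The genes with the highest arterial ratios outside the calling markers had varied roles. Mgp, and below Stmn2 and Fbln2, belong to the arterial list and are already part of its count. Igfbp3, which binds insulin-like growth factors, was found in 70 of 178 arterial-like and 5 of 323 capillary-like cells, at 254 (222 to 289.7) and 6.57 (2.84 to 13) CPM. Stmn2, a microtubule-destabilising protein best known from neurons, had 572 (523 to 624) CPM in arterial-like and 29.6 (20.7 to 41.0) CPM in capillary-like cells and was present in 124 and 17 of them. Its log2 ratio was 4.13 in female-derived and 4.30 in male-derived cells. Egfl8, a secreted protein with EGF-like repeats, had 267 and 14.0 CPM. The matrix genes Npnt, Col18a1 and Fbln2 (nephronectin, collagen XVIII and fibulin-2) had 91.1, 72.9 and 82.0 CPM in arterial-like cells, against 0.822, 1.64 and 4.11 CPM in capillary-like cells. Tmem100, which acts downstream of the ALK1 receptor, had 123 and 9.86 CPM, Cdk19, a kinase of the Mediator complex, 316 and 38.6 CPM, the cadherin Cdh13 63.8 and 0.822 CPM, and the calcium pump gene Atp2b4 57 and 0.822 CPM. Syt15, a synaptotagmin, had 47 UMIs in arterial-like cells and none in capillary-like cells, at least 21.7-fold higher against a floor of 3 UMIs.

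Smooth muscle RNA was found in part of the arterial-like cells. All 6 of the 8 smooth muscle genes that could be measured were at least 2-fold higher in arterial-like than in capillary-like cells, and the list summed to 399 CPM in arterial-like, 101 CPM in venous-like and 41.1 CPM in capillary-like cells. Few cells carried the arterial sum: 107 of 178 had no UMI of the list, 18 held 76.6% of it, and 1 reached 291 per 10000. The sums were 116 CPM in female-derived and 223 CPM in male-derived arterial-like cells. Acta2, the contractile actin, had 78.6, 11 and 0.822 CPM. At least 1 UMI of Acta2, Tagln or Myh11 was held by 12 arterial-like, 8 venous-like and 4 capillary-like cells. Without all of these cells, 171 genes were at least 2-fold higher in arterial-like than in capillary-like cells, and the median of the measured arterial list was 1.93 rather than 1.85. Cells that held UMIs only of other smooth muscle genes stayed in. The part of smooth muscle RNA in the arterial differences was therefore not tested.

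**Figure D2:**
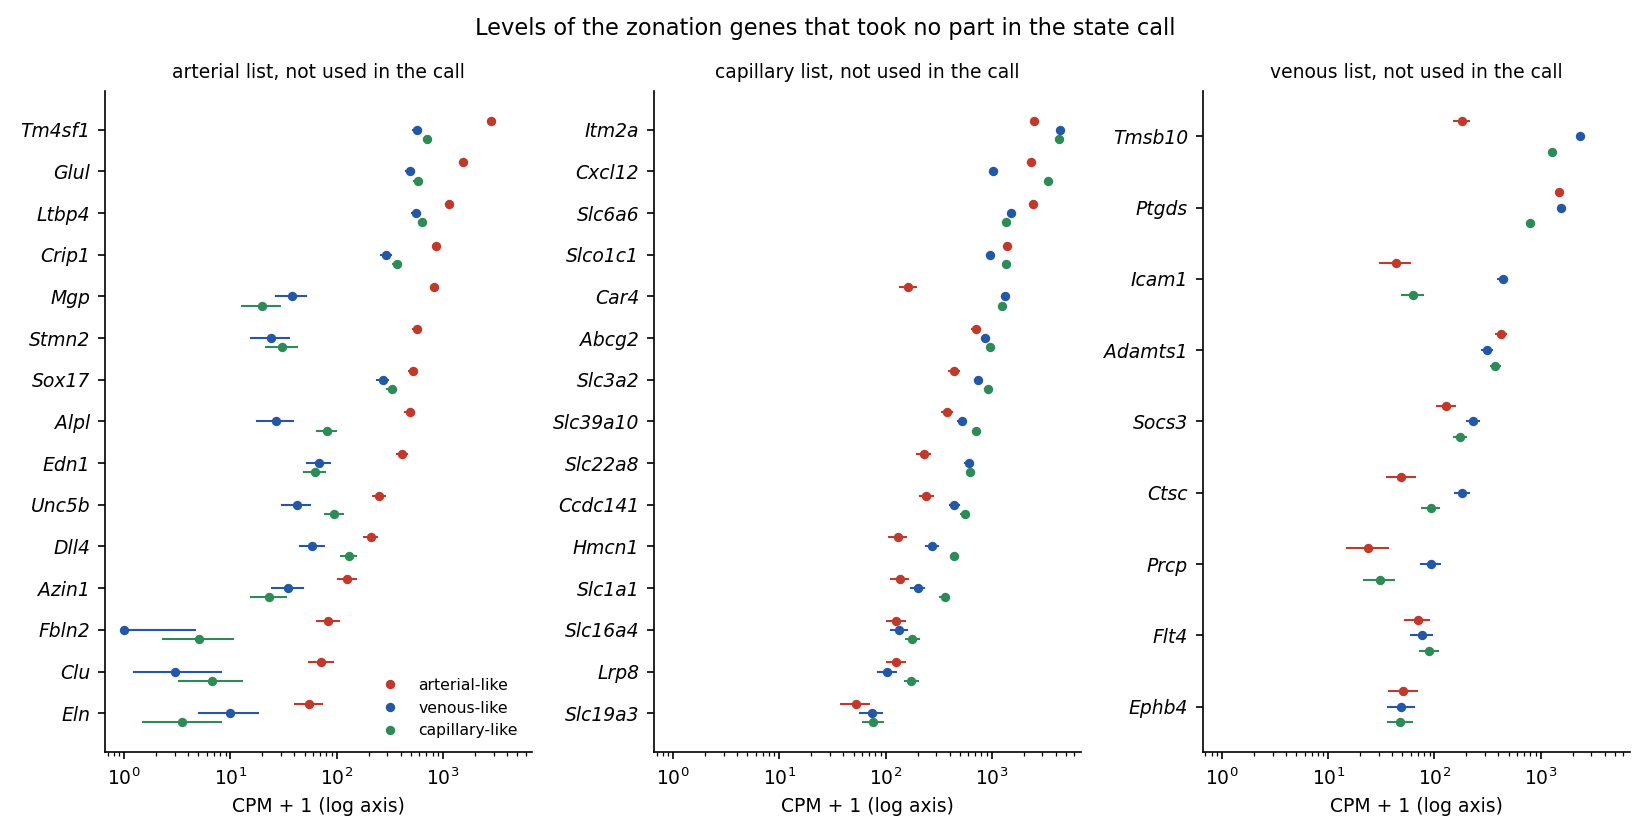
Each line is a zonation gene shown here, outside the calling markers with at least 50 CPM in 1 state, and each dot its level in arterial-like (red, top), venous-like (blue) and capillary-like cells (green) on a log axis of CPM plus 1, with bars for the 95% counting interval. The red dots lie to the right of both others for most of the arterial list (Tm4sf1 at 2857 CPM), and for the capillary list the blue dots lie within 2-fold of the green ones except for Cxcl12.

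The genes that were lowest in arterial-like cells relative to capillary-like cells included enzymes, actin regulators and secreted proteins. Car4, a carbonic anhydrase anchored to the cell surface, had 162 (136 to 191) CPM in arterial-like, 1329 (1259 to 1402) CPM in venous-like and 1254 (1192 to 1318) CPM in capillary-like cells. It was detected in 41 of 178, 151 of 159 and 289 of 323 cells. Tmsb10, which binds actin monomers, had 180.0 (153 to 210.4) CPM in arterial-like and 1288 (1225 to 1354) CPM in capillary-like cells. It was higher still in venous-like cells, with 2344 (2250.4 to 2441) CPM. Ndnf, a secreted neurotrophic factor, had 34.2 and 236 CPM in arterial-like and capillary-like cells, and the protease inhibitor Ctla2a 382 and 1833 CPM. The flavin monooxygenase Fmo2 had 9.11 and 56.7 CPM and the matrix protein hemicentin-1 (Hmcn1) 129 and 445 CPM. Also among the 12 lowest were Cpe, Ttyh2, Tiam1, Proser2 and 4430402I18Rik, with log2 ratios of -2.06, -2.04, -1.72, -1.70 and -1.73. All 12 were lower in female-derived and in male-derived cells, the smallest difference being -1.35 (log2) for Proser2 in female-derived cells.

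A capillary list of 17 genes outside the call split the states unevenly. Of the 16 measured, 6 were at least 2-fold lower and 0 higher in arterial-like than in capillary-like cells, with a median log2 ratio of -0.66, or -0.52 over all 17. Besides Car4 and Hmcn1, these were the organic anion transporter Slc22a8 (228 and 622 CPM), the glutamate transporter Slc1a1 (136 and 359 CPM), Ccdc141 (242 and 554 CPM) and Slc3a2, the heavy chain of amino acid exchangers (439.7 and 929 CPM). The taurine transporter Slc6a6, placed in the capillary list, ran the other way, with 2462 (2359 to 2568) CPM in arterial-like and 1372 (1307 to 1439.6) CPM in capillary-like cells, short of the 2-fold mark. In venous-like cells 1 gene of the list was 2-fold lower than in capillary-like cells, and the median was -0.32.

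**Figure D3:**
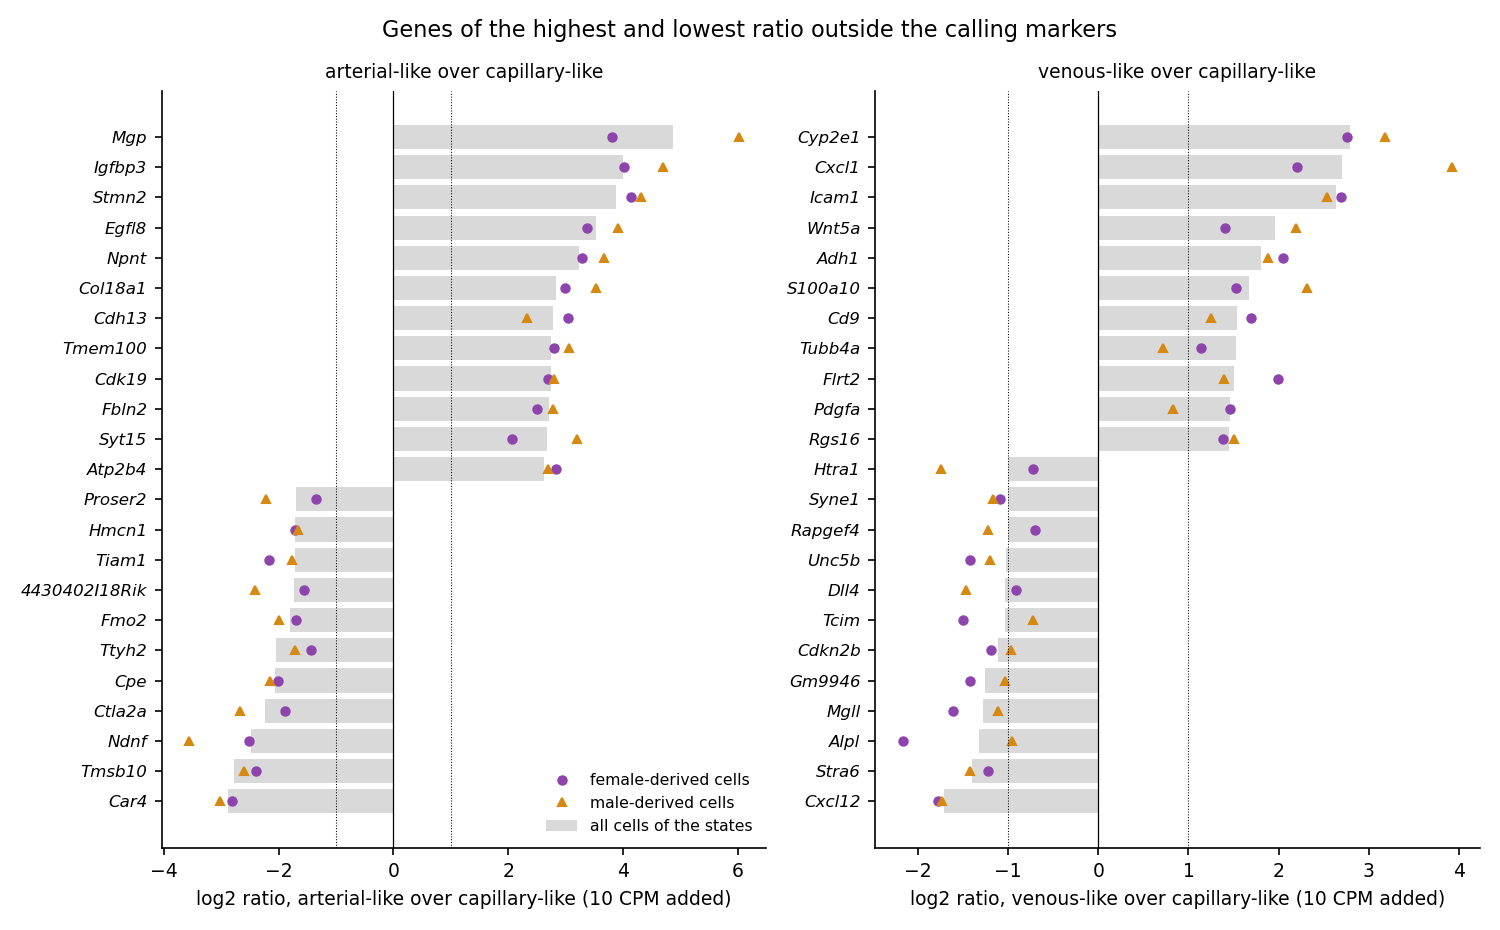
Bars give the log2 ratio (10 CPM added) of arterial-like over capillary-like cells (left) and venous-like over capillary-like cells (right) for genes among the 12 highest and 12 lowest outside the calling markers, purple circles the same ratio in female-derived cells and orange triangles in male-derived cells. Dotted lines mark 2-fold; every gene shown kept its direction in both sets of mice because the choice required it, and Mgp differed most between them on the left (3.81 in female-derived and 6.01 in male-derived cells).

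Fewer genes separated venous-like from capillary-like cells. Of 6852 genes measured, 111 were at least 2-fold higher in venous-like than in capillary-like cells (1.62%) and 23 were lower (0.336%), with a median log2 ratio of 0.01 over all of them. Of the 111, 89 had the same direction in female-derived and male-derived cells, but only 31 reached 2-fold in both. All 23 lower genes kept their direction, and 10 reached 2-fold in both. Of the 111, 78 were lower in the endothelial cells as a whole than in the other sham barcodes, that is, they were genes that other cord cells carried at a higher level. Oligodendrocyte genes were among them. The oligodendrocyte list summed to 7759 CPM in venous-like and 3753 CPM in capillary-like cells, and 7 of its 10 genes passed the 2-fold mark. A few cells carried this: the median cell held 30.3 per 10000 UMIs of the list in the venous-like and 31.6 in the capillary-like state, and 16 venous-like cells held 69.0% of the UMIs of their state. In female-derived cells the sums were 5974 and 3155 CPM, and in male-derived cells 3312 and 3260 CPM. Fibroblast genes summed to 419 and 287 CPM, border macrophage genes to 20.9 and 0.822 CPM, and 8 venous-like and 1 capillary-like cell were marked as doublets. The part of these other cell types in the venous differences was not tested. Where cells had to hold fewer than 10 per 10000 of the pericyte and of the myelin genes, 73 genes were higher in venous-like cells, and where genes higher in the other sham barcodes were left out, 33 were.

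The genes with the highest venous ratios were the following. Icam1, a ligand for leukocyte integrins, had 437 (397 to 479.6) CPM in venous-like and 61.6 (48.5 to 77.2) CPM in capillary-like cells, a difference of 7.09-fold (5.54 to 9.18). It was found in 67 of 159 venous-like and 48 of 323 capillary-like cells, and its log2 ratio was 2.69 in female-derived and 2.53 in male-derived cells. Cyp2e1, a cytochrome P450 known from liver, had 87.7 (70.4 to 108) and 4.11 (1.33 to 9.59) CPM, from 24 venous-like and 3 capillary-like cells, and no UMI in arterial-like cells. Cxcl1, a chemokine that draws neutrophils, had 65.8 (50.9 to 83.7) and 1.64 (0.199 to 5.94) CPM; 21 venous-like cells held it, and 1 of them had 16 of its 66 UMIs. Lower in the ranking came the Wnt ligand Wnt5a (79.8 and 13.1 CPM), the alcohol dehydrogenase Adh1 (50.9 and 7.40 CPM), S100a10, the partner of annexin A2 (137 and 36.2 CPM), the guidance protein Flrt2 (126 and 37.8 CPM) and the G-protein regulator Rgs16 (66.8 and 18.1 CPM).

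In all, 3 of the 12 leading venous genes were abundant in other cord cells. The tubulin gene Tubb4a had 257 CPM in venous-like and 83.0 CPM in capillary-like cells, against 1882 CPM in the other sham barcodes; under the stricter myelin and pericyte limits its log2 ratio was 0.43 instead of 1.52. The tetraspanin Cd9 had 103, 28.8 and 579 CPM, and the growth factor Pdgfa 53.8, 13.1 and 338 CPM, in the same 3 sets. For Pdgfa the log2 ratio was 0.29 instead of 1.46 when states were called at an equal depth of 1000 UMIs. A venous list of 20 genes outside the call gave 4 higher and 0 lower of 11 measured, with a median log2 ratio of 0.92, and a median of 0.33 over all 20. The venous list shares Ptgds with the oligodendrocyte list. It summed to 4033 CPM in the 1302 cells and 15596 CPM in the other sham barcodes. Among the 4 higher genes were Icam1, the peptidase Prcp (91.7 and 29.6 CPM) and the adhesion receptor Adgrg6 (23 UMIs in venous-like and none in capillary-like cells). Selp and Sele, the selectins that venules display when activated, had 0 and 4 UMIs in all 1302 cells.

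Few genes were lower in venous-like than in capillary-like cells. Cxcl12, the chemokine that holds CXCR4-bearing cells, had 1027 (965 to 1092) CPM in venous-like and 3398 (3295 to 3503) CPM in capillary-like cells, a log2 ratio of -1.72 that was -1.78 in female-derived and -1.74 in male-derived cells. Arterial-like cells, at 2359 (2259 to 2463) CPM, lay between them. Stra6, the receptor through which cells take up retinol, had 50.9 and 151 CPM in venous-like and capillary-like cells, and Mgll, which breaks down the endocannabinoid 2-arachidonoylglycerol, had 71.8 and 188 CPM. Alpl, Dll4 and the netrin receptor Unc5b, which the arterial list also holds, had 25.9, 57.8 and 40.9 CPM in venous-like cells, against 79.7, 129 and 93.7 CPM in capillary-like cells. The other 6 of the 12 lowest genes (Gm9946, Cdkn2b, Tcim, Rapgef4, Syne1 and Htra1) had log2 ratios between -1.26 and -1.0. Of the 12, 8 lost the 2-fold mark under at least 1 alternative: Htra1, Tcim, Rapgef4, Syne1, Cdkn2b, Dll4, Unc5b and Alpl. The value nearest to 0 among these was -0.70, for Rapgef4 in female-derived cells.

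The 3 genes with the highest venous-to-capillary ratio among those outside the calling markers and present in at least 10% of venous-like cells, Cyp2e1, Cxcl1 and Icam1, all held the letters GGANNTTCC, on either strand, in the 300 bases from 250 before to 50 after a RefSeq start (build GRCm38.p6). These letters cover common forms of the site bound by NF-κB, the factor that drives many endothelial genes of inflammation, and they were chosen for the search with these genes in view. Of the 12 leading venous genes, 9 had a promoter in the RefSeq table and these 3 held the letters, against 4.86% of the 27025 genes there. Of 9 genes of the leukocyte adhesion list with a promoter, 4 held them, Icam1 and Cxcl1 among them. Of the venous calling markers 0 of 6 held them, and of the venous list outside the call 2 of 17. None of the 7 leading arterial genes with a promoter did, and the letters TGGGAA of the Notch factor RBPJ were found in 2 of those 7, against 28.3% of all genes. A match is a description of the letters and not a bound site. The promoters are shown, 5′ to 3′ on the plus strand, from 250 bases before to 30 after the start, because they carry the matched letters, which are in capitals; they begin 8, 70 and 153 bases before the start. Cyp2e1 lies at chr7:140763569-140763848, Cxcl1 at chr5:90890995-90891274 and Icam1 at chr9:21015690-21015969.
Cyp2e1: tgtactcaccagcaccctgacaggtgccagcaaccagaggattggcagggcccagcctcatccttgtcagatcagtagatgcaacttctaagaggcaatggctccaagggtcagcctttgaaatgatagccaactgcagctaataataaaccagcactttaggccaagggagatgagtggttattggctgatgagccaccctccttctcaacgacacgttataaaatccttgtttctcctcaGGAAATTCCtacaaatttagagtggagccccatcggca
Cxcl1: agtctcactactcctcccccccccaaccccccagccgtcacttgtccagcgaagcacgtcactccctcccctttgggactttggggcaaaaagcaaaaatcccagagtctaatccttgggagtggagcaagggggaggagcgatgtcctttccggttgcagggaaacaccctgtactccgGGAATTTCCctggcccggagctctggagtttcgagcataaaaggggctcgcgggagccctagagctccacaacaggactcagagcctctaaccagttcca
Icam1: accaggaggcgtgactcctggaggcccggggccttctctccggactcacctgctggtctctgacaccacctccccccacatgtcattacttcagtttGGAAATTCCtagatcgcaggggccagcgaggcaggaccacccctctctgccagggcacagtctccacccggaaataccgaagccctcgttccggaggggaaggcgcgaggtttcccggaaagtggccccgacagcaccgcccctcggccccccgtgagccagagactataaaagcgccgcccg

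Arterial-like and venous-like cells were also set against each other. Of 7047 genes, 187 were at least 2-fold higher in arterial-like than in venous-like cells (2.65%) and 162 were lower (2.3%), with a median log2 ratio of 0.02 over all. Of the called genes, 185 and 155 had the same direction in both sets of mice, and 135 and 90 reached 2-fold in both. Mgp, Stmn2 and Igfbp3 were again among the highest ratios, now joined by Alpl. In the order named they had 36.9, 22.9, 7.98 and 25.9 CPM in venous-like cells. Runx1t1, a transcriptional co-repressor, had 58.1 CPM in arterial-like, 1.99 CPM in venous-like and 21.4 CPM in capillary-like cells. Slc26a10 followed the same order with 68.4, 3.99 and 18.9 CPM, and the secreted chaperone clusterin (Clu) with 70.6, 1.99 and 5.75 CPM. Toward the vein, the neuropilin Nrp2, a co-receptor for VEGF-C, had 5.70, 98.7 and 36.2 CPM. Rnase4 had 3.42, 114 and 45.2 CPM. For both, and for Tmsb10, Flrt2 and Fmo2, capillary-like cells lay between the other states. Of the venous list, 6 of 11 measured genes were at least 2-fold lower in arterial-like than in venous-like cells, and of the arterial list 16 of 18 were higher.

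Part of the nutrient transporters differed between the states. Over all genes measured, 2.58% were at least 2-fold higher and 1.21% lower in arterial-like than in capillary-like cells. For venous-like over capillary-like cells the shares were 1.62% and 0.336%, and for arterial-like over venous-like cells 2.65% and 2.3%. Of 25 barrier transporters, 11 were at least 2-fold lower in arterial-like than in capillary-like cells and 0 were higher. Since 6 of the 25 were themselves calling markers, the count was repeated without them, and 6 of 19 were lower, with a median log2 ratio of -0.46. The other 3 joined Slc22a8, Slc1a1 and Slc3a2. The iron exporter Slc40a1 had 111 (89.6 to 135) CPM in arterial-like and 288 (259 to 320.2) CPM in capillary-like cells. The glutamine transporter Slc38a3 had 100.3 (80.4 to 124) and 273 (244 to 304) CPM, and the organic anion transporter Slco2b1 had 93.4 (74.3 to 116) and 248 (221 to 278) CPM. Central barrier genes stayed within 2-fold: Slc2a1, the glucose transporter, had 3185 CPM in arterial-like, 2209 CPM in venous-like and 2335 CPM in capillary-like cells, and the efflux pump gene Abcb1a had 965, 1084 and 1113 CPM. Between venous-like and capillary-like cells 0 of the 19 passed the mark in either direction. Of 23 junction genes, 20 were measured, and none differed 2-fold between any 2 of the 3 states. Occludin (Ocln) had 249, 261 and 293 CPM and the scaffold protein Tjp1 had 374, 451 and 439.6 CPM. The caveolin and cavin list gave 0 of 7 in each comparison, with Cav1 at 329, 426 and 350.0 CPM. With so low a share over all genes, the counts of 0 above do not set these lists apart.

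**Figure D4:**
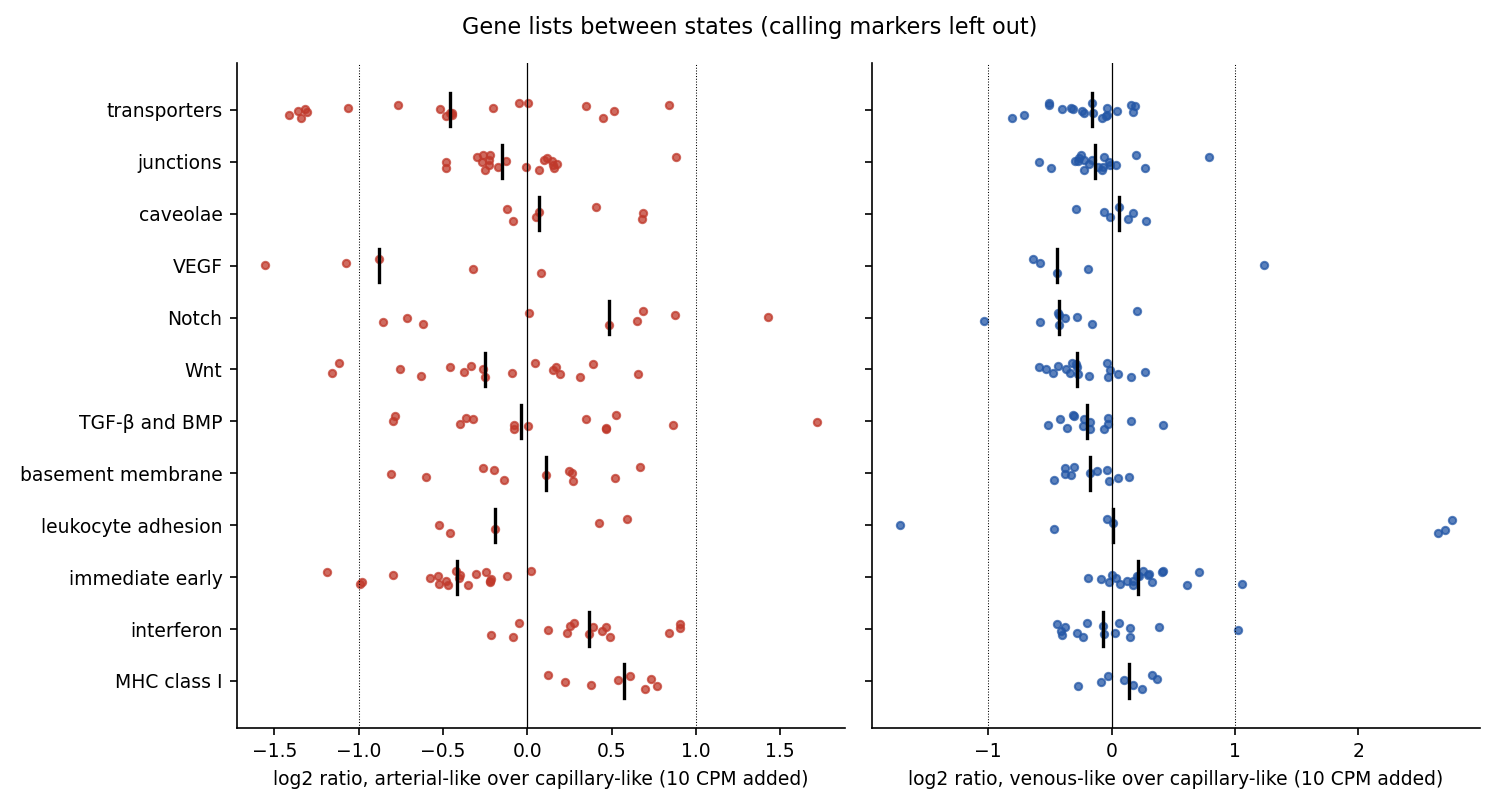
Each dot is a measured gene of the named list outside the calling markers, placed by its log2 ratio (10 CPM added) of arterial-like (left) or venous-like cells (right) over capillary-like cells, with a black tick at the list's median and dotted lines at 2-fold. Transporters spread to the left in arterial-like cells (6 of 19 past the line), junction genes stay between the lines in both panels, and in venous-like cells 3 leukocyte adhesion genes lie far to the right.

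VEGF maintains vessels and makes them sprout. Of the 5 genes of its list measured outside the call, 2 were at least 2-fold lower in arterial-like than in capillary-like cells, Kdr and Nrp2. Kdr, the main signalling receptor, had 451 (408 to 498) CPM in arterial-like, 639 (591 to 691) CPM in venous-like and 961 (907 to 1018) CPM in capillary-like cells, and the co-receptor Nrp1 had 245, 292 and 459 CPM. Flt1, a decoy receptor and one of the genes that defined the cells, had 5209, 3626 and 4932 CPM. In the list of Notch, the pathway of arterial identity, the ligand Jag2 had 439 (396 to 485), 128 (106 to 152) and 157 (135 to 181) CPM in the same order of states. The receptors Notch1 (391, 203 and 276 CPM) and Notch4 (166, 61.8 and 86.3 CPM) were graded less steeply. The target Hes1 was lowest in arterial-like cells, with 444, 537 and 810.2 CPM. Without Hey1, 1 of 9 measured Notch genes was at least 2-fold higher in arterial-like than in capillary-like cells and 3 of 9 were higher than in venous-like cells.

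Most Wnt, TGF-β and angiopoietin signalling genes stayed within 2-fold, as did most of all genes measured. The Wnt list, which holds the pathway that keeps the barrier, had 2 of 17 measured genes at least 2-fold lower in arterial-like than in capillary-like cells. They were the inhibitors Nkd1 (138 and 311 CPM) and Apcdd1 (11.4 and 37.8 CPM), both themselves Wnt targets. The transcription factor Lef1 had 212 and 333 CPM. In the TGF-β and BMP list 1 of 14 measured genes passed the mark, the inhibitory Smad6, with 131 (108 to 157) CPM in arterial-like and 32.9 (23.5 to 44.8) CPM in capillary-like cells; the ligand Tgfb2 had 420.4 and 227 CPM and the BMP targets Id1 and Id3 2605 and 2094 CPM in arterial-like cells, against 3349 and 2213 CPM in capillary-like cells. The angiopoietin receptor Tek had 456 and 358 CPM. Angpt2, the ligand made by remodelling vessels, had 6.84 CPM in arterial-like and 33.7 CPM in capillary-like cells.

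Of a list of 12 basement membrane genes, 11 were measured and 0 reached the mark in either comparison with capillary-like cells, near the low share over all genes. The list does not hold Col18a1 and Npnt, which were higher in arterial-like cells. The list includes Col4a1, at 441 CPM in arterial-like, 358 CPM in venous-like and 363 CPM in capillary-like cells. Of 7 measured leukocyte adhesion genes outside the call, 3 were higher in venous-like than in capillary-like cells, and they were Icam1, Cxcl1 and the interferon-induced chemokine Cxcl10 (68.8 and 1.64 CPM), which was named after its values were seen; 1 was lower, Cxcl12, and the median log2 ratio of the 7 was 0.01. For Cxcl10, a single venous-like cell held 59 of the 69 UMIs, and 7 cells held any. Icam2, which resting endothelium also bears, was even, with 337 and 334 CPM. Among coagulation genes outside the call, Entpd1, which breaks down platelet-activating ATP and ADP, had 182 (155 to 213) CPM in arterial-like and 55.9 (43.4 to 70.8) CPM in capillary-like cells. Procr, the protein C receptor, had 39.9 and 9.04 CPM, while thrombomodulin (Thbd) had 125 and 183 CPM.

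Immediate early genes, which rise within minutes of stress and of tissue digestion, were abundant in every state, with the lowest sum in arterial-like and the highest in venous-like cells. Their list summed to 26601 CPM in arterial-like, 39896 CPM in venous-like and 34418 CPM in capillary-like cells, and to 13832 CPM in the other sham barcodes. Of its 20 genes, 19 were below 0 on the log2 scale in arterial-like over capillary-like cells, with 1 at 2-fold, and 17 were above 0 in venous-like over capillary-like cells, with 1 at 2-fold. The medians of the list were -0.42 and 0.22 in these comparisons, against 0.04 and 0.01 over all genes measured. Atf3, a stress-induced transcription factor, had 322 (286 to 362), 1224 (1157 to 1295) and 748 (699.9 to 798) CPM in arterial-like, venous-like and capillary-like cells, and Ier3 179 (152 to 209), 771 (717 to 827) and 366 (332 to 401) CPM. Several of these genes, among them Ier3 and Nfkbia (1239, 1955 and 1470.0 CPM), are also targets of NF-κB. How much of the level arose during dissociation was not tested.

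Interferon and antigen presentation genes mostly had higher levels in arterial-like cells. Of 15 interferon-induced genes 12 were above 0 in arterial-like over capillary-like cells, with a median log2 ratio of 0.37 and none at 2-fold, and all 8 MHC class I pathway genes were above 0, with a median of 0.58 and none at 2-fold. Over all genes measured the median of this comparison was 0.04. Against venous-like cells, 1 gene of each list was at least 2-fold higher in arterial-like cells. Ifitm3, which blocks virus entry, had 3480.3 (3358 to 3606) CPM in arterial-like, 2052 (1964 to 2143) CPM in venous-like and 1851 (1776 to 1929) CPM in capillary-like cells, and Irf7 had 279, 104 and 145 CPM. B2m, the light chain of class I molecules, had 1221 (1149 to 1297), 897 (839.7 to 958) and 836 (786 to 889) CPM. The class I and Ly6 genes have close relatives, and the sources used here do not give how the authors' counting divided reads among copies. Over single cells the interferon list reached a median of 41.6 per 10000 UMIs over the 1302 cells, with 12 cells at 0, 10% of cells above 86.1 and a highest value of 495, in a venous-like cell. By state the median was 56.8 in arterial-like, 41.7 in venous-like and 39.1 in capillary-like cells.

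The 642 cells without a state had the lowest median depth, 2973.5 UMIs, against 3826.5 in arterial-like, 4454 in venous-like and 3195 in capillary-like cells. Of them, 364 were left out by the margin between scores, 241 had no score above 0 and 37 had too few markers with a UMI. Their highest score was capillary in 268, venous in 198 and arterial in 176. In these cells Car4 had 1076 CPM, Tmsb10 1252 CPM, Cxcl12 2780.1 CPM and Icam1 113 CPM, and the arterial genes Mgp and Stmn2 had 37.4 and 82.4 CPM. Haemoglobin and other erythroid genes summed to 112 CPM in cells without a state, against 7.97 CPM in arterial-like, 1.99 CPM in venous-like and 4.11 CPM in capillary-like cells. A few cells carried that sum, since 626 of the 642 had no UMI of the list and the highest had 496 per 10000.

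At 3 dpi the same rule found 380 of 13584 barcodes (2.80%, 2.53 to 3.09%), with 7276417 UMIs and a median of 15189 per cell, and their levels are set beside those of the sham cells. Injury and library cannot be told apart, and the 3 dpi cells were deeper and held more marked doublets (10.3%). Of 7103 genes, 603 were at least 2-fold higher at 3 dpi (8.49%) and 1005 were lower (14.1%), and the median log2 ratio was -0.27. The median-of-ratios scaling of the 2 groups stood at -0.37 on the log2 scale, and relative to it 919 genes were higher and 600 lower. Of the 22 endothelial markers, 13 were at least 2-fold lower at 3 dpi, with a median log2 ratio of -1.62. The list holds the 5 endothelial genes of the rule, of which 2 were at least 2-fold lower. Those 5 summed to 6284 CPM at 3 dpi and 15918 CPM in sham cells. Since the rule chose the cells of both libraries on them, their levels are a description. RNA of other cells moved too. Oligodendrocyte genes summed to 635 CPM at 3 dpi and 6059 CPM in sham cells, microglia genes to 744 and 241 CPM, neutrophil genes to 166 and 1.98 CPM, and erythroid genes to 606 and 52.2 CPM. Their part in the differences that follow was not tested. Transporters were lower in 23 of 24 measured: Slco1a4 had 132 (124 to 141) CPM at 3 dpi and 1997 (1959.8 to 2034) CPM in sham cells, and Slc22a8 17.0 (14.2 to 20.3) and 506 (487 to 525) CPM. The capillary list outside the call was lower in 16 of 16. Calling markers of the arterial state were lower in 6 of 7, with Gkn3 at 3.57 and 118 CPM and Hey1 at 10.4 and 119.6 CPM in 3 dpi and sham cells, while Gja4 had 49.9 and 12.1 CPM. Of the venous markers 5 of 8 were higher: Lrg1, a secreted glycoprotein of inflamed and sprouting vessels, had 312 and 1.08 CPM, and Vwf 327 and 151 CPM. Tip cell genes, which mark the leading cell of a sprout, were higher at 3 dpi in 10 of 10 measured of 11, and cell cycle genes in 13 of 15. Apln, the ligand of sprouting vessels, had 351 and 5.04 CPM, the placental growth factor Pgf 389 and 0.899 CPM, and the mitotic gene Top2a 125 and 0.899 CPM.

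**Figure D5:**
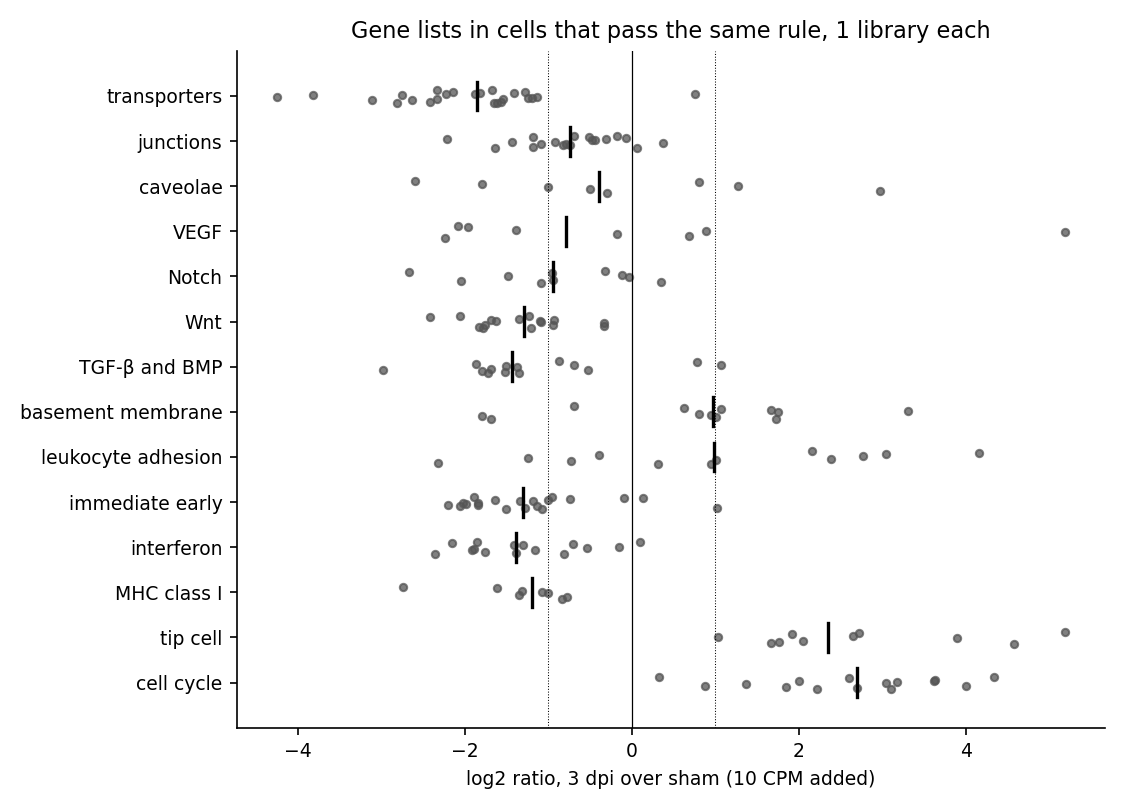
Each dot is a measured gene of the list, placed by its log2 ratio (10 CPM added) of 3 dpi over sham cells that passed the same rule, with a black tick at the median and dotted lines at 2-fold. Transporter genes lie left of the lower line in 23 of 24 cases and tip cell genes right of the upper line in 10 of 10.

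Outside those lists, the other genes of the largest ratio were mixed. Higher at 3 dpi were the tubulin gene Tubb6 (378 CPM at 3 dpi and 8.27 CPM in sham cells), the histone gene Hist1h2ap (317 and 10.8 CPM), Timp1, an inhibitor of matrix proteases (136 and 0.360 CPM), Upp1 (156 and 1.80 CPM), Emp1 (227 and 11.2 CPM), Trp53i11 (258 and 7.91 CPM) and Aprt (505 and 52.9 CPM). Lower were the growth factor pleiotrophin (Ptn, 204 and 1985 CPM), Spock2 (262 and 2717 CPM), Itih5 (95.5 and 953 CPM) and Alpl (7.70 and 144 CPM). Gm42418, a locus that overlaps ribosomal RNA, was lower too, with 1393 and 16668 CPM, as was AY036118 (44.1 and 766 CPM). Collagen IV, the core of the basement membrane, was higher, with Col4a1 at 1284 (1258 to 1309.9) CPM at 3 dpi and 379.9 (364 to 396) CPM in sham cells, and so was Tmsb10, with 4258 and 1288 CPM.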

How the data were processed

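Single-cell RNA of 1 sham and 1 3 dpi library was analysed from the authors' deposited tables of UMI counts per gene and cell barcode, which are not normalised. Cell Ranger, Seurat and the build GRCh38 are named in the submitters' processing notes; GRCh38 is a human build, while the gene symbols are those of mouse. The tables held 22480 genes and no mitochondrial gene. No column of another sample was present.

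UMIs were summed over the cells of a state and given as CPM. Intervals were exact Poisson for levels, exact conditional binomial for fold changes, and Clopper-Pearson for shares, at 95%. A log2 ratio had 10 CPM added to both levels, and a gene was measured at 20 CPM in either group. The code was tested on simulated data. Doublets were sought against simulated cell pairs and not removed. The members, marker lists and comparisons were chosen with earlier results of these data known.

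The genes named were the calling and held-out zonation genes, the 12 highest and lowest between states with at least 50 CPM, 20 UMIs and 10% of cells in the higher state and the same direction in both sexes, the 20 genes with most UMIs, list members of 100 CPM, and 8 at each end at 3 dpi with at least 100 CPM. Apcdd1, Angpt2, Procr, Cxcl10, Adgrg6, Plvap and Top2a were named after their values were seen. Some genes that the rule names are not reported here. Promoters came from RefSeq. Levels were computed in Python 3.11.15 with numpy 2.4.6 and scipy 1.17.1. Clusters used leidenalg 0.10.2 on igraph 0.11.9 and scikit-learn 1.9.0, and plots used matplotlib 3.10.9.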

Additional observations from a re-analysis of the deposited data

How the results depend on the processing

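Over 88 named gene ratios and 15 alternatives, all 1104 values kept their direction, which the naming rule itself required of the female-derived and male-derived cells, and 1072 stayed at 2-fold. Every value that did not was venous-like over capillary-like, 8 of the 12 lowest genes there among them, and Pdgfa was lowest among the higher ones, at 0.29 after thinning. The counts below did not stay within 1.5 times, and the cause was not tested. With 1 CPM added, 291 genes were higher and 164 lower in arterial-like over capillary-like, 216 and 65 in venous-like over capillary-like, and 297 and 271 in arterial-like over venous-like cells, and 1538 were lower at 3 dpi than in sham cells; the arterial list's median was 2.52 over capillary-like and 2.51 over venous-like cells. In female-derived cells alone, with fewer cells, the counts were 359 and 211, 217 and 119, and 378 and 306, and in male-derived cells alone 435 and 339, 217 and 175, and 439 and 413, in the same order. The arterial list's median over venous-like cells was 2.36 in male-derived cells, and the venous list's, arterial-like over venous-like, was -0.87 in female-derived cells and -0.52 with no minimum level. With pericyte and myelin genes below 10 per 10000, 138 genes were lower in arterial-like, and 73 higher and 45 lower in venous-like than in capillary-like cells. A margin of 0.5 left 187 capillary-like cells and gave 137, 199 and 54 for the same 3 counts. Thinned to 1000 UMIs, which left out 50 cells, 84 cells were arterial-like and 102 venous-like, the 3 counts were 173, 57 and 50, and 295 genes were higher in arterial-like than in venous-like cells. With each cell weighted equally, 56 were higher and 36 lower in venous-like than in capillary-like cells. Without genes at a higher level in the other sham barcodes, chosen after seeing the data, 33 were higher there and 103 were lower in arterial-like than in venous-like cells. Median-of-ratios scaling gave 919 higher and 600 lower at 3 dpi than in sham cells. Leiden clusters gave 103 venous-like cells, of which 33 formed a cluster whose leading genes included Cd74, H2-Ab1, H2-Aa, H2-Eb1 and Lyz2 beside Vcam1. It had 7 of the 8 venous calling markers at 2-fold. However, 1 cell held 107 of the 119 Cd74 UMIs in the endothelial cells. Among cells without a state, 1 cell per gene held 58 of 59 H2-Ab1, 51 of 52 H2-Aa and 35 of 36 H2-Eb1 UMIs. The part of single cells in the cluster's leading genes was not tested, and its name is uncertain. The Leiden clusters gave no capillary cluster, so with them only arterial-like over venous-like ratios were obtained. Leaving out cells with an Acta2, Tagln or Myh11 UMI, also chosen after seeing the data, moved no result past 1.5 times.

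No paired analysis was possible because each condition had 1 library. With 1 library of pooled mice per condition, the spread between animals is unknown, and male-derived and female-derived cells share the library. Of the 1302 cells, 642 had no state, and genes under 20 CPM in both groups were not compared.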

Other observations

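Cd24a, a small surface glycoprotein, was found in 39 of 178 arterial-like, 3 of 159 venous-like and 7 of 323 capillary-like cells. Of the 119 UMIs of Cd74, the invariant chain of MHC class II, 107 came from 1 cell without a state. Plvap had 73.0 CPM in 3 dpi cells and 0.540 CPM in sham cells, and Igfbp3, a leading arterial gene in sham cells, had 313 CPM in 3 dpi cells and 48.6 CPM in sham cells. These genes were picked after their values were seen.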
